A study of Mus musculus with 49 samples.

Results

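The ephrin, semaphorin, netrin and Slit genes and their receptors were followed through 49 single cells of the mouse kidney at its first appearance. Members were the rows of the deposited expression table whose gene symbol was an ephrin, an Eph receptor, a semaphorin, a plexin, a neuropilin, a netrin, Unc5a to Unc5d, Dcc, Neo1, Slit1, Slit3, Robo1 or Robo3. This gave 47 of 13093 genes, of which 25 encode ligands and 22 receptors. The cells were captured from metanephric mesenchyme that had been microdissected at 11.5 days post coitum (E11.5), Theiler stage 19, together with a few cells from outside the Crym-expressing area. Embryos of both sexes carried the Tg(Crym-EGFP)82Gsat transgene, which marks cells with Crym promoter activity, on a mixed background. Which embryo or litter a cell came from is not labelled, and the cells therefore count as 1 sample: they show how levels vary between cells, and no test between animals can be had from them.

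The metanephric mesenchyme gives rise to nephrons from progenitors that express the transcription factor Six2, and to stroma from progenitors that express Foxd1. Cells were therefore grouped by whether each of these genes reached 1 RPKM (mapped reads scaled to gene length and to the reads of the cell), the level at which any gene was counted as detected here. Six2 alone was detected in 18 cells, here called Six2-only, and Foxd1 alone in 15 cells, called Foxd1-only. Another 9 cells held both genes and 7 held neither. Whole marker lists followed these groups, although the lists include Six2 and Foxd1 themselves: the RPKM of 15 nephron progenitor markers summed to a median of 867 (251 to 2225) in Six2-only cells, against 154 (7.62 to 752) in Foxd1-only cells. The sum over 16 stromal markers had a median of 155 RPKM (7.14 to 494) in Six2-only cells, against 840 RPKM (338 to 1370) in Foxd1-only cells.

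Genes detected per cell had medians of 4960.5 in Six2-only cells and 5232 in Foxd1-only cells, and ranged from 3610 to 6510 over all cells. Total reads are unknown, but the steps between low values gave a relative depth of 0.693 to 1.52 in 47 cells, with class medians of 1.05 in Six2-only cells and 0.987 in Foxd1-only cells. Cell 3, with both genes, and cell 7, Foxd1-only, stood apart at 0.0346 and 0.0462. A pair of cells also held genes of other tissues: cell 25, Foxd1-only, detected 10 of 11 ureteric bud genes, and cell 27, with neither gene, detected all 8 endothelial genes analysed. Cell 27 also detected the 2 macrophage genes analysed, Fcer1g at 41.1 and Laptm5 at 46.2 RPKM, and no other cell detected Laptm5. The 11 ureteric bud genes summed to a median of 0.232 RPKM (0 to 163) in Six2-only cells and of 2.44 RPKM (0 to 817) in Foxd1-only cells, and 1 of them, Gata3, was detected in 0 Six2-only and 8 Foxd1-only cells. The 4 neural markers analysed summed to 7.51 RPKM (0 to 63.3) in Six2-only cells and 1.23 RPKM (0 to 279) in Foxd1-only cells. Their part in the differences of guidance genes was not tested.

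Guidance genes were first described in growing axons and are also used by epithelia, vessels and migrating mesenchyme. Ephrins are membrane-bound ligands that signal to Eph receptor tyrosine kinases on a touching cell, and can signal back into the cell that carries them. Semaphorins act through plexins; the secreted class 3 forms mostly need a neuropilin as coreceptor, and the transmembrane forms can also act as receptors. Netrins bind Dcc, neogenin (Neo1) and the Unc5 receptors, and Slits bind Robo receptors. In the developing kidney, class 3 semaphorins are known to act on branching of the ureteric bud and on vessels.

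Most guidance genes were found in a minority of cells, and a few receptors and 1 ephrin were found nearly everywhere. A member was detected in a median of 12 cells (1 to 47), and the median over all 13093 genes was 16 cells. Of the 47 members, 9 (19.1%) were detected in 25 or more of the 49 cells, while 34.8% of all genes reached that number. These 9 were the ligands Efna5, Efna1 and Sema6a and the receptors Nrp1, Robo1, Unc5c, Neo1, Plxnb2 and Epha7. At the other end, 16 of the 47 members were detected in fewer than 5 cells, beside 2847 of all 13093 genes. A cell detected a median of 13 members (7 to 25). Nearly every cell combined several systems: at least 1 ephrin was detected in 48 cells, 1 Eph receptor in 42, 1 semaphorin in 47, 1 plexin or neuropilin in 48 and 1 netrin receptor in 44.

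**Figure D1:**
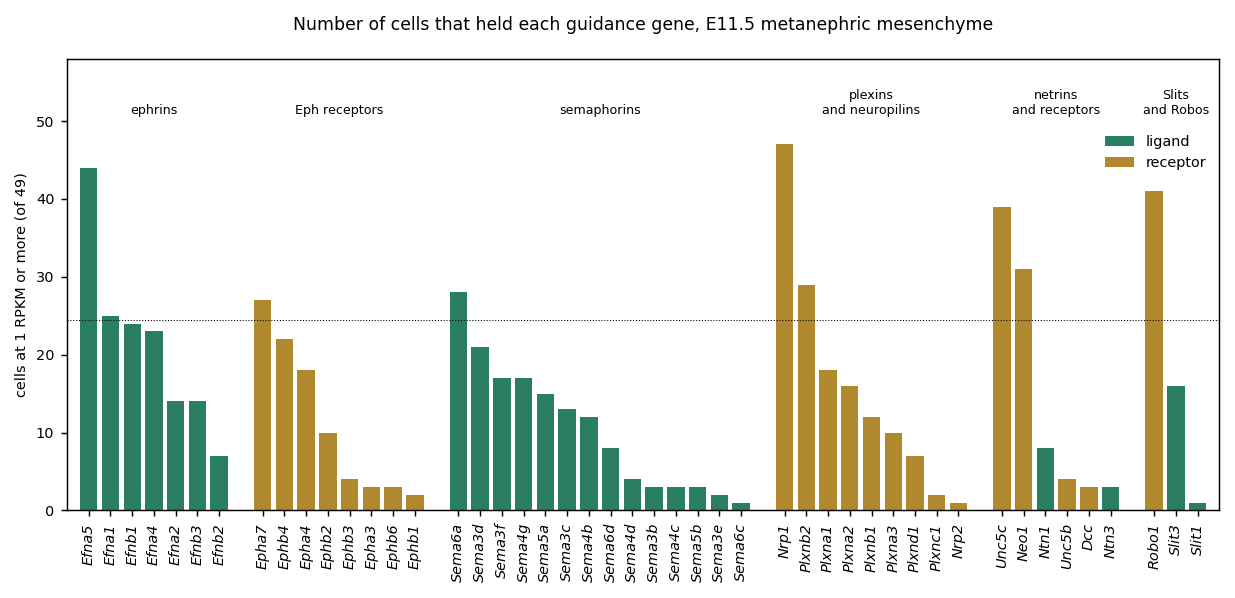
Number of the 49 cells that held each guidance gene at 1 RPKM or more, as bars grouped by family, with ligands and receptors in separate colours and a dotted line between 24 and 25 cells. Nrp1 (47 cells) and Efna5 (44 cells) lead, and many semaphorins and Eph receptors were held by a handful of cells.

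Among the 7 ephrins, the GPI-anchored Efna5 was the most abundant member in the whole set. It was detected in 44 of 49 cells (89.8%; exact 95% interval 77.8 to 96.6, which like all intervals here covers counting error only), had a median of 94.2 RPKM and reached 481 RPKM in cell 37; no cell listed it at 0. Efna1, another GPI-anchored ligand, was detected in 25 cells (51.0%; 36.3 to 65.6) with a median of 1.00 RPKM, yet reached 443 RPKM in cell 27. The pattern of Efna1 was therefore one of high and empty cells, whereas Efna5 was high in most. The other GPI-anchored ligands, Efna4 in 23 cells and Efna2 in 14 cells, reached 108 and 30.2 RPKM. The transmembrane ligands Efnb1, Efnb3 and Efnb2 were detected in 24, 14 and 7 cells and reached at most 45.7 RPKM.

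Of the 8 Eph receptors analysed, Epha7 was the one in 25 or more cells: 27 cells (55.1%; 40.2 to 69.3), with a median of 4.19 RPKM, and its top value was 72.8 RPKM in cell 14. Ephb4, a receptor for ephrin-B2 known from venous endothelium, was detected in 22 cells and reached 50.8 RPKM. Epha4, which binds both ephrin classes, was detected in 18 cells and was also highest in cell 14, at 57.3 RPKM. Ephb2 was detected in 10 cells. The remaining receptors, Ephb3, Epha3, Ephb6 and Ephb1, were detected in 4, 3, 3 and 2 cells, with highest values between 3.26 and 25.4 RPKM. Counted by cells, the A-class ligands were thus paired mainly with Epha7 and Epha4, and the B-class ligands with Ephb4.

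The semaphorins were the largest family, with 14 members, and 6 of them were detected in fewer than 5 cells. Sema6a, a transmembrane ligand, was the one in 25 or more cells (28 cells, 57.1%; 42.2 to 71.2), with a median of 2.90 RPKM and 109 RPKM at most, again in cell 14. Among the secreted class 3 genes, Sema3d was detected in 21 cells, Sema3f in 17, Sema3c in 13, Sema3b in 3 and Sema3e in 2. Sema3d held the family's highest value, 161 RPKM in cell 32, while its next value was 81.7 RPKM in cell 4. Its median was 0.352 RPKM (0 to 81.7) in Six2-only cells and 0.294 RPKM (0 to 73.0) in Foxd1-only cells, so the classes overlapped almost fully. The transmembrane Sema4g, Sema5a, Sema4b and Sema6d were detected in 17, 15, 12 and 8 cells. Sema4d, Sema4c, Sema5b and Sema6c were each detected in 4 cells or fewer.

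Nrp1, the coreceptor for class 3 semaphorins that also binds VEGF-A, was the most widely detected member. It was found in 47 cells (95.9%; 86.0 to 99.5), with a median of 31.2 RPKM and 90.5 RPKM at most. Its relative Nrp2 was detected in 1 cell, at 3.09 RPKM. Of the plexins, the class B receptor Plxnb2 led with 29 cells (59.2%; 44.2 to 73.0) and a median of 3.25 RPKM. The class A plexins Plxna1, Plxna2 and Plxna3, which signal with neuropilins, were detected in 18, 16 and 10 cells, and Plxnb1 in 12. Plxnd1, a semaphorin receptor known from endothelium, was detected in 7 cells and Plxnc1 in 2. At least 1 of the 5 class 3 semaphorins was detected in 38 cells, and 36 of these held Nrp1, a share set largely by how common Nrp1 was.

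For netrins, the receptors were common and the ligands rare. Unc5c was detected in 39 cells (79.6%; 65.7 to 89.8) with a median of 11.0 RPKM, and Neo1, which also binds repulsive guidance molecules, in 31 cells (63.3%; 48.3 to 76.6) with a median of 2.04 RPKM. Netrin ligands were detected in 10 cells in all, Ntn1 in 8 and Ntn3 in 3. Ntn3 overlaps Tbc1d24 in the table's coordinates, and since reads carry no strand its 3 low values (3.61 RPKM at most) cannot be assigned with certainty. Dcc and Unc5b were detected in 3 and 4 cells. Unc5b had its highest value, 52.6 RPKM, in cell 27, where the next was 10.3 RPKM in another cell. Robo1 was detected in 41 cells (83.7%; 70.3 to 92.7) at a median of 4.84 RPKM, its ligand Slit3 in 16 cells with 29.1 RPKM at most, and Slit1 in 1 cell.

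Foxd1-only cells held more guidance genes than Six2-only cells did. The number of members detected was lowest 7, median 10.5 and highest 19 in Six2-only cells, against 10, 14 and 25 in Foxd1-only cells. The highest number in Foxd1-only cells came from cell 25, which held the ureteric bud genes. Guidance genes made up a median of 0.194% of the genes detected in a Six2-only cell and 0.286% in a Foxd1-only cell. Cells with both genes detected a median of 16 members (11 to 25) and cells with neither 15 (9 to 17), and the ranges of all 4 classes overlapped.

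The class difference was taken as the mean log2(RPKM + 1) of Six2-only cells minus that of Foxd1-only cells, and a gene was called at a difference of 1 or more. On this scale the change of low genes is understated. Of the 47 members, 2 were higher in Six2-only cells (4.26%, where 8.75% of all genes were), namely Efna1 and Sema3f. Another 5 were lower (10.6%, where 7.78% of all genes were): Epha7, Sema6a, Efna5, Nrp1 and Ntn1. The median difference was -0.19 over the members and 0.00 over all genes. Below 0 lay 31 of 47 members and 6338 of 13093 genes, and 16 of the members were detected in fewer than 5 cells. Among the 31 members detected in 5 or more cells, which include all 7 called ones, the median was -0.38, against 0.04 over all genes so filtered, of which 11.1% were higher and 9.88% lower. By family, the median was -0.49 in ephrins, -0.35 in Eph receptors, 0.00 in semaphorins, -0.29 in plexins and neuropilins, 0.06 in netrins with their receptors and -0.72 in the 3 Slit and Robo genes. The shares called were close to those of all genes, so the count alone does not set the guidance genes apart. Ntn1 lay just inside the limit at -1.01, and Plxna3 and Plxnd1 just outside it at -0.93 and -0.91; Plxna3 passed it, at -1.04, without cell 25 and also without cell 7, and both passed it with status set at 0.1 or 5 RPKM.

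**Figure D2:**
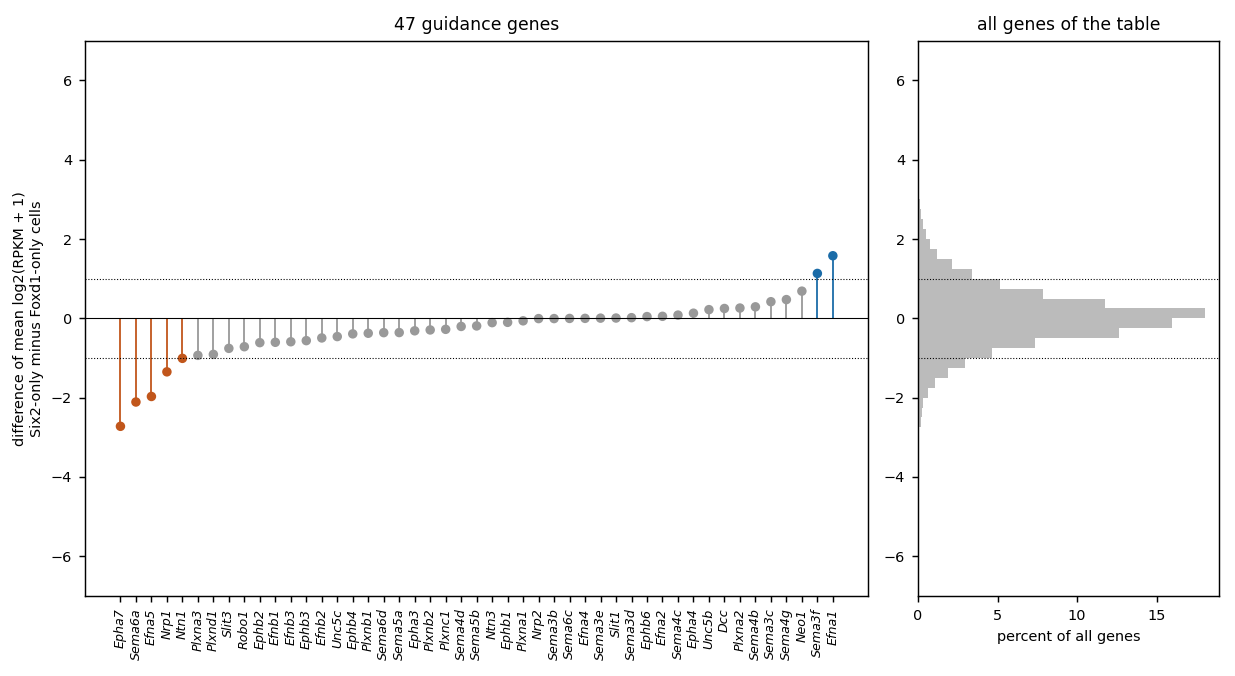
Difference in mean log2(RPKM + 1), Six2-only minus Foxd1-only cells, for each of the 47 members (left, in rising order) and as a histogram of all genes (right, in percent), with dotted lines at the limits of 1 and -1. Epha7 lies farthest down at -2.72 and Efna1 farthest up at 1.58.

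Epha7 had the largest class difference of the members. It was detected in 4 of 18 Six2-only cells (22.2%; 6.41 to 47.6), against 13 of 15 Foxd1-only cells (86.7%; 59.5 to 98.3). Its lowest, median and highest values were 0, 0.08 and 26.8 RPKM in Six2-only cells and 0.0443, 13.3 and 72.8 RPKM in Foxd1-only cells. The classes overlapped through 4 Six2-only cells, numbers 16, 48, 26 and 23, at 4.92 to 26.8 RPKM, and through Foxd1-only cells 41 and 1, which lay below 1 RPKM. Mean log2(RPKM + 1) was 1.01 ± 1.75 in Six2-only cells and 3.74 ± 1.90 in Foxd1-only cells (SD over 18 and 15 cells), a difference of -2.72 that exceeded both SDs. Cells with both transcription factors (6 of 9) and with neither (4 of 7) lay between. All cells with Six2 differed from all without by -1.76, and all cells with Foxd1 from all without by 1.92.

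Sema6a split the Six2-only from the Foxd1-only cells much as Epha7 did. It too was detected in 4 of 18 Six2-only cells and 13 of 15 Foxd1-only cells, with values of 0, 0.09 and 30.5 RPKM (lowest, median, highest) in Six2-only cells and 0, 8.11 and 109 RPKM in Foxd1-only cells. The difference was -2.11, from 0.91 ± 1.60 in Six2-only cells and 3.02 ± 1.92 in Foxd1-only cells. The Six2-only cells that held Sema6a were mostly others than those that held Epha7: cells 36, 23, 4 and 34, at 3.03 to 30.5 RPKM. Both genes were detected in 1 of 18 Six2-only cells and in 11 of 15 Foxd1-only cells. Neither gene was detected in 11 Six2-only cells, and no Foxd1-only cell lacked both. Cells with neither transcription factor held Sema6a in 5 of 7, at a median of 13.7 RPKM and a mean log2(RPKM + 1) of 3.10. Cells with both held it in 6 of 9, at a mean of 2.43. Unlike Epha7, Sema6a was thus as high in cells with neither factor as in Foxd1-only cells.

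Efna5, a ligand that binds Epha7 among other EphA receptors, and Nrp1 were graded rather than split. Efna5 had values of 0.237, 71.6 and 433 RPKM in Six2-only cells (lowest, median, highest) and of 23.0, 171 and 481 RPKM in Foxd1-only cells. It was detected in 16 of 18 Six2-only and in all 15 Foxd1-only cells, so the classes differed in level and in a tail of low Six2-only cells. The difference was -1.97, from 5.36 ± 2.31 in Six2-only cells and 7.33 ± 1.13 in Foxd1-only cells, which is smaller than the SD among Six2-only cells. Of the 7 cells with neither transcription factor, 4 held Efna5, and their median was 5.69 RPKM. Nrp1 had values of 0.0522, 25.3 and 57.0 RPKM in Six2-only cells and of 4.37, 46.4 and 90.5 RPKM in Foxd1-only cells. Its difference was -1.35, from 4.11 ± 1.54 in Six2-only cells and 5.46 ± 0.99 in Foxd1-only cells, with most of the 2 ranges shared.

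Ntn1, the secreted ligand of Unc5c and Neo1, was called on few cells. It was detected in 2 of 18 Six2-only cells (0, 0 and 2.62 RPKM, lowest, median and highest) and in 4 of 15 Foxd1-only cells (0, 0.19 and 38.1 RPKM). The 4 were cells 25, 17, 37 and 42, at 7.43, 8.46, 34.0 and 38.1 RPKM. The difference was -1.01, from 0.23 ± 0.51 in Six2-only cells and 1.24 ± 1.93 in Foxd1-only cells. Without cell 25 it was -0.88 and missed the limit.

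Efna1 was the ligand that lay highest in Six2-only cells relative to Foxd1-only cells. Its lowest, median and highest values were 0, 2.20 and 208 RPKM in Six2-only cells and 0, 0 and 144 RPKM in Foxd1-only cells. It stood at 10 RPKM or more in 8 of 18 Six2-only cells and in 2 of 15 Foxd1-only cells, and it was listed at 0 in 8 cells of each class. The shares at 1 RPKM were closer, 9 of 18 Six2-only cells (50.0%; 26.0 to 74.0) and 6 of 15 Foxd1-only cells (40.0%; 16.3 to 67.7), with intervals that overlapped. The difference was 1.58, from 2.93 ± 3.13 in Six2-only cells and 1.35 ± 2.37 in Foxd1-only cells, within the SD of either class. Cells with both transcription factors held Efna1 in 7 of 9, at a mean of 3.49. Cells with neither held it in 3 of 7, at a mean of 3.32 that includes cell 27. Foxd1-only cells thus had the lowest mean of all classes, and Six2-only cells did not have the highest. Sema3f was detected in 9 of 18 Six2-only cells, at 0, 1.85 and 79.1 RPKM, and in 4 of 15 Foxd1-only cells, at 0, 0.11 and 24.7 RPKM. Its 3 highest values, 79.1, 76.8 and 68.8 RPKM, were all in Six2-only cells, and its highest Foxd1-only value was that of cell 25. The difference was 1.13, from 2.00 ± 2.31 in Six2-only cells and 0.87 ± 1.49 in Foxd1-only cells.

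**Figure D3:**
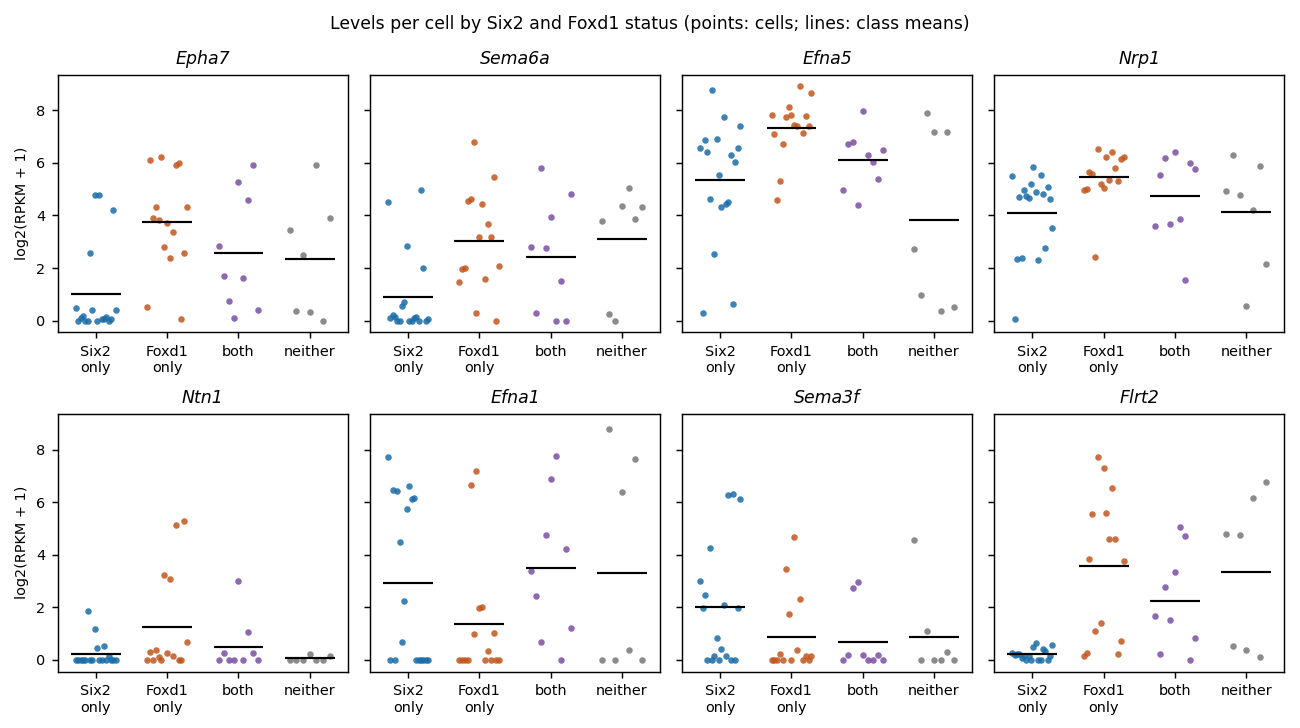
Level of the 7 called members and of Flrt2 in every cell (points), as log2(RPKM + 1), by Six2 and Foxd1 status, with a line at each class mean. Epha7 and Sema6a are near 0 in most Six2-only cells and above 1 RPKM in 13 of 15 Foxd1-only cells, while Efna1 and Sema3f spread from 0 to high values in both classes.

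The other widely detected members showed smaller differences. The receptor Neo1 was detected in 11 of 18 Six2-only cells and 9 of 15 Foxd1-only cells, with a difference of 0.69; it was 1.06 for all cells with Six2 against all without, but -0.16 for all cells without Foxd1 against all with, so its direction depended on how cells were grouped. Robo1 and Unc5c were each detected in 14 Six2-only and 13 Foxd1-only cells, with differences of -0.72 and -0.46, and Plxnb2 in 10 cells of each class, with a difference of -0.29. The direction held for Robo1 under the alternatives tried, and Robo1 passed the limit, at -1.23, with status set at 0.1 RPKM. Unc5c turned to 0.28 for all cells with Six2 against all without, and Plxnb2 to 0.70 with status set at 0.1 RPKM, so neither has a settled direction. Robo1 had medians of 4.26 RPKM (0 to 48.2) in Six2-only cells and 4.71 RPKM (0.391 to 44.4) in Foxd1-only cells, and Unc5c of 7.60 RPKM (0 to 52.0) in Six2-only cells and 11.4 RPKM (0.0921 to 48.7) in Foxd1-only cells. Plxnb2 had medians of 2.28 RPKM (0 to 37.0) in Six2-only cells and 3.98 RPKM (0 to 62.9) in Foxd1-only cells, and Neo1 of 1.27 RPKM (0 to 40.6) in Six2-only cells and 1.83 RPKM (0 to 11.5) in Foxd1-only cells. The ranges of these 4 receptors overlapped between the classes. Slit3, the ligand of Robo1, was detected in 2 of 18 Six2-only cells and 7 of 15 Foxd1-only cells, with a difference of -0.76. Plxnd1 reached 1.56 RPKM in 1 Six2-only cell, the single cell of that class to hold it, against 94.4 RPKM at most among 3 Foxd1-only cells. Unc5b was detected in 1 Six2-only cell, at 10.3 RPKM, and in 0 of 15 Foxd1-only cells, where a count of 0 still allows 3 cells. Ephb4 was detected in 7 Six2-only and 8 Foxd1-only cells, Efnb2 in 1 Six2-only and 3 Foxd1-only cells, and Sema6d in 2 Six2-only and 4 Foxd1-only cells. Their differences were -0.39, -0.49 and -0.36, and those of Efnb2 and Sema6d turned to 0.19 and 0.14 for all cells without Foxd1 against all with.

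**Figure D4:**
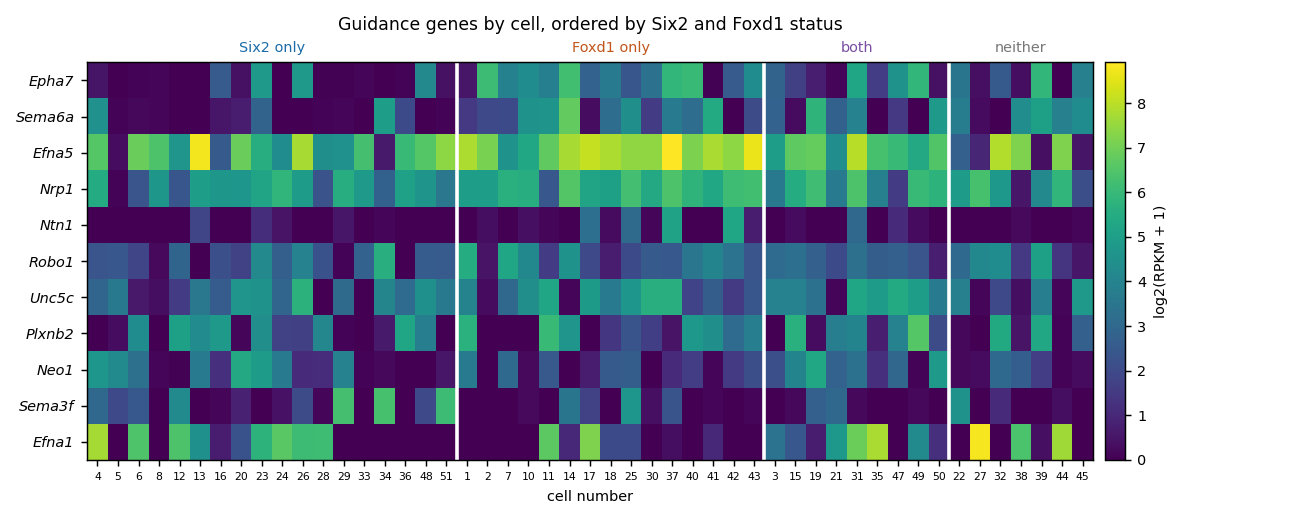
Level of the 11 members that were called or detected in 25 or more cells (rows, in order of the class difference) in each of the 49 cells (columns, by Six2 and Foxd1 status), as log2(RPKM + 1) on a scale from dark (0) to yellow (highest). Efna5 and Nrp1 form nearly unbroken bright rows, and Epha7 and Sema6a are dark across most Six2-only cells.

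The promoters of the called members are shown because these genes differ between cells with Six2, a homeobox factor, and cells with Foxd1, a forkhead factor. The sequences are the 150 bases before the first listed start in RefSeq on build GRCm38.p6, read 5′ to 3′ on the strand of the gene, with CpG dinucleotides in capitals. Epha7 lies at chr4:28812981-28813130 (plus strand), Efna5 at chr17:62881318-62881467 (minus strand), Nrp1 at chr8:128358923-128359072 (plus strand) and Efna1 at chr3:89280952-89281101 (minus strand).
Epha7: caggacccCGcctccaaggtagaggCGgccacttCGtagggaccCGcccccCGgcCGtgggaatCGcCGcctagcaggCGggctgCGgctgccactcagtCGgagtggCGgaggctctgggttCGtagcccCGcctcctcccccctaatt
Efna5: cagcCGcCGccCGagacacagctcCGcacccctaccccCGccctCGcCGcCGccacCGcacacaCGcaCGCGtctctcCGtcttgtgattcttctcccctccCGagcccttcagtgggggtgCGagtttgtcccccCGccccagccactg
Nrp1: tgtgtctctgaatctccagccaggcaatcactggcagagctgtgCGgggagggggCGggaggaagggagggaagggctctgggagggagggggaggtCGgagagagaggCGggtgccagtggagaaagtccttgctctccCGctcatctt
Efna1: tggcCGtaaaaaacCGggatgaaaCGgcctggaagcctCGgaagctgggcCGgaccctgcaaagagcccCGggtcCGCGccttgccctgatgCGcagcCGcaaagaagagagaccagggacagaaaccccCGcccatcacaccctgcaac
These windows hold 14 CpGs (Epha7), 16 (Efna5), 5 (Nrp1) and 11 (Efna1). The 250 bases before the start could be read for 39 of the 47 members, at 48 starts. These held a median of 16.5 CpGs, against 6 at all 32851 RefSeq starts. The members come from the deposited expression table, which leaves out genes that were low in every cell. The 32851 starts were not limited to genes of that table, so this contrast does not set the guidance genes apart. The letters TGTTTAC, a forkhead core, were found on neither strand at any of the 48 member starts, and in 3.17% of all starts. The letters TCANGTTTC, a core of Six2-type motifs, were likewise found at 0 of 48 member starts and in 0.989% of all starts. At such shares 48 starts are too few to show a lack of either motif, and binding was not tested. Sema3f and Ntn1 were among the members without an entry, and the promoter of Sema6a is not reported here.

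In the table's own build, mm9, Epha7 (gene ID 13841) spans chr4:28740295-28894649, Efna5 (13640) chr17:62952306-63230666, Nrp1 (18186) chr8:130882973-131029375, Ntn1 (18208) chr11:68022866-68200328, Efna1 (13636) chr3:89075652-89084873 and Sema3f (20350) chr9:107583833-107612806. The table has 1 value for a whole gene, so exons, introns and untranslated regions are not told apart. Efna1 and Efna4 lie 52.4 kb apart on chromosome 3 but were detected together in 8 cells, where the product of their shares gives 11.7. Sema3f and Sema3b lie 72.3 kb apart on chromosome 9 and were detected together in 0 cells, though Sema3b was in 3 cells only.

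Ligands and their receptors were mostly found in the same cell about as often as their separate frequencies give. Of 54 pairs, 22 had both genes in 5 to 44 cells; 11 of these were found together in more cells than the product of their shares and 11 in fewer. Spearman's rho over the 49 cells ran from -0.25 to 0.38, with a median of 0.01, and is given as a description of cells that share 1 preparation. Ntn1 and Unc5c stood at the top, with Unc5c in all 8 cells that held Ntn1 (6.37 by the product). Neo1 was in 7 of the 8 (5.06 by the product). Unc5c was in 39 and Neo1 in 31 of all 49 cells, so these overlaps were set largely by how common the receptors were. Efna5 and Epha7 shared 25 cells (24.2 by the product), of which 4 were Six2-only and 13 Foxd1-only. Sema6a and its receptor Plxna2 shared 12 cells (9.14 by the product), Efnb1 and Ephb2 shared 7 (4.90), and Slit3 and Robo1 shared 12 (13.4).

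The genes whose levels over the 49 cells ranked most like those of Epha7, among 8421 genes in 10 or more cells, were Pcdh18 (rho 0.68), Col1a1 (0.67) and Foxp2 (0.67). Pcdh18 encodes a protocadherin, Foxp2 a forkhead factor, and Col1a1 a collagen chain that is on the stromal marker list. The lowest rho was that of Crym (-0.59), the gene whose promoter drives the reporter. Sema6a ranked most like Reep5 (0.61), Mecom (0.52) and Kirrel (0.52), and Efna5 most like Def8 (0.54), Bri3 (0.49) and Peg3 (0.48). The first genes of the 3 members were thus all different. With Foxd1 itself, rho was 0.43 for Epha7, 0.35 for Sema6a and 0.32 for Efna5. These 3 were chosen by a difference between classes set by Six2 and Foxd1, so a positive rho was largely given by that choice. None of the 7 called members followed the number of genes detected per cell, with rho between -0.10 and 0.11.

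Genes that carry guidance signals inside the cell, and other partners of these receptors, were compared between the same classes. Of 77 rows for 76 genes on a list of effectors and partners, 3 were higher in Six2-only cells (3.90%) and 10 lower (13.0%). Of all genes, 8.75% were higher and 7.78% lower, and the median difference over the list was -0.14. The same 3 and 10 were called among genes detected in 5 or more cells, where 11.1% of all genes were higher and 9.88% lower. With a pseudocount of 10 the counts were 0 and 2, so a lean of the list as a whole is not settled. The largest difference was that of Flrt2, a membrane protein that binds Unc5 receptors: it was detected in 0 of 18 Six2-only cells (0.571 RPKM at most) and in 11 of 15 Foxd1-only cells (median 13.2, highest 208 RPKM), a difference of -3.34. A count of 0 of 18 still allows 3 cells. Crmp1, a mediator of semaphorin signals, was detected in 5 Six2-only and 10 Foxd1-only cells (-2.21). Chl1, an adhesion molecule that binds Nrp1, was detected in 2 Six2-only and 9 Foxd1-only cells (-1.91), and Ptk2, focal adhesion kinase, in 8 Six2-only and 13 Foxd1-only cells (-1.88). In the other direction, Limk2, a kinase that inactivates cofilin, was detected in 10 Six2-only and 3 Foxd1-only cells (2.00). The shared core of the machinery was in every cell: Dpysl2, Cfl1, Cdc42 and Rhoa were detected in all 49 cells, at medians of 683, 642, 297 and 123 RPKM.

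Cell 27, with the endothelial genes, held 4 members at levels no other cell reached, and other cells did so for other members. Cell 14 was highest for Epha7, Epha4, Nrp1 and Sema6a, and cell 30 for Efnb1, Epha3, Ephb3 and Sema4d. In cell 27 Efna1 stood at 443 RPKM (217 at most in the 47 cells other than 25 and 27). Plxnd1 stood at 104 (94.4), Unc5b at 52.6 (10.3) and Sema6d at 50.1 RPKM (12.8) there. Cell 27 also held Nrp1 at 78.3 RPKM and Ephb4 at 42.6 RPKM, below the 90.5 and 50.8 RPKM reached in the other 47. Efnb2 at 40.4 RPKM and Robo1 at 17.0 RPKM were likewise below the 45.7 and 48.2 RPKM reached elsewhere. Efna5, Sema6a, Epha7 and Unc5c were below 1 RPKM in cell 27. It detected 9 members in all, 8 of them at 10 RPKM or more. Efnb2, Ephb4, Nrp1, Plxnd1 and Unc5b are known from endothelium, but cell 27 also detected the 2 macrophage genes analysed. Cell 25, with the ureteric bud genes, detected 25 members, and among these Efna5 stood at 171, Nrp1 at 74.4, Efnb2 at 32.6, Sema3f at 24.7, Unc5c at 24.7 and Sema6a at 20.8 RPKM. Plxnc1 alone was above every other cell in it, at 16.9 RPKM against 6.37 at most in the 47 others. Each is a single cell, and whether cell 25 or cell 27 was a mixture of cells was not tested.

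**Figure D5:**
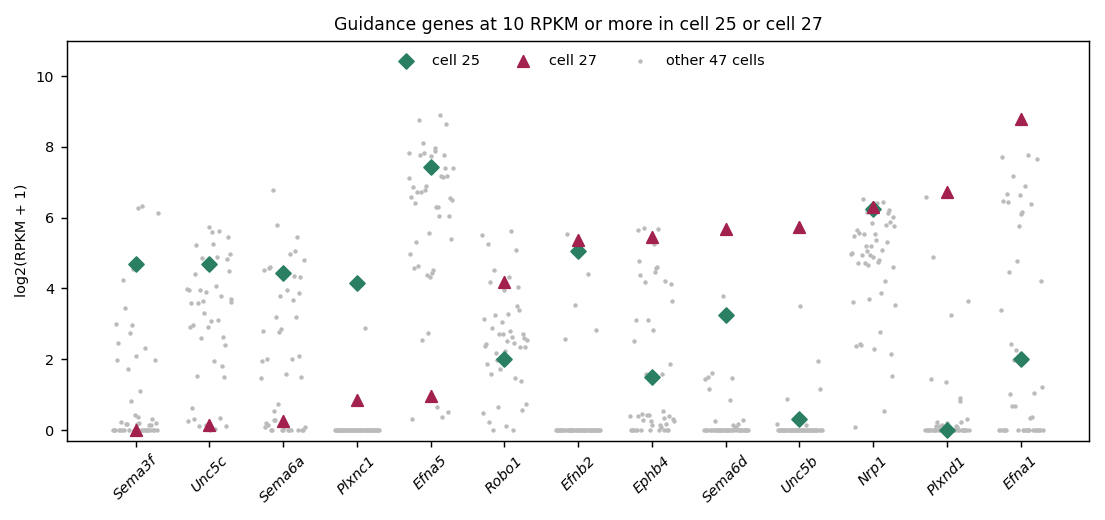
Level of the guidance genes at 10 RPKM or more in cell 25 (diamonds, ureteric bud genes) or cell 27 (triangles, endothelial genes), as log2(RPKM + 1), with the 47 other cells as small points. Efna1, Plxnd1, Unc5b and Sema6d in cell 27, and Plxnc1 in cell 25, lie above all small points.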

How the data were processed

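The deposited values are RPKM per gene and cell, per the file headers. The submitters' processing notes name TopHat 1.4.1, DESeq and mm9 without role or order. Not given in the sources used here are the read counter, the annotation and whether starts count from 0 or 1. Per the labels' protocols, cells were captured on a Fluidigm C1 chip, cDNA was made with SMARTer and libraries with Nextera XT, which keep no molecular identifiers and no strand. The 13093 genes each exceed 3 RPKM in at least 1 cell, as the deposited column of cells above 3 RPKM also gives, so a gene low throughout was not analysed here.

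All 49 cells form 1 sample. No cell was filtered, no doublet caller was run, and no p-values were computed. The levels of 1 RPKM for detection and status, the pseudocount of 1 RPKM and the difference limit of 1 (log2) apply throughout; log2 values were computed here from the deposited RPKM. Intervals are exact 95% binomial. Relative depth came from the ratios of low values between cells. The relative depth and the class difference were tested on simulated data. Named members were those in 25 or more cells, past the class difference, highest in their family, or above 10 RPKM in cells 25 or 27; up to 6 effectors or partners past the difference were named, of which 1 is not reported here. The members and lists were chosen with earlier results of these data known. The alternatives changed the pseudocount, the status level, the classes, the scaling and the cells kept. 26 symbols stood on more than 1 row, none of them a member; 0 columns of values were unused. Of 81 effectors and partners, 5 were not analysed here. Python 3.11.15 was used with numpy 2.4.6, pandas 2.3.3, scipy 1.17.1 and matplotlib 3.10.9.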

Additional observations from a re-analysis of the deposited data

How the results depend on the processing

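No paired analysis was possible because all cells belong to 1 group with no replicate or embryo numbers. With detection at 0.1 RPKM 17 members were in 25 or more cells, and at 5 and at 10 RPKM 3, beside 9 as reported. As reported, 2 members were higher and 5 lower, and 3 effectors or partners were higher and 10 lower. The shares of all genes were 8.75% higher and 7.78% lower. A pseudocount of 0.1 gave 11 members lower and 8 effectors higher and 20 lower, where 16.5% of all genes were higher and 16.5% lower. A pseudocount of 10 gave 0 members higher and 2 lower, and 0 effectors higher and 2 lower. Of all genes, 1.57% were then higher and 1.33% lower, so the share over all genes moved with the setting. Status at 10 RPKM gave 3 members lower and 5 effectors higher, beside 6.71% of all genes lower and 9.79% higher. All cells with Six2 against all without gave 2 members and 5 effectors lower, beside 3.60% of all genes. All cells without Foxd1 against all with gave 0 members and 0 effectors higher, beside 3.00% of all genes. Rescaling set all cells to the same sum, above that of any cell as deposited (396959 to 526418 RPKM). All values other than 0 thus rose against the pseudocount of 1 RPKM. With rescaling 8 members were lower and 5 effectors higher, where 11.5% of all genes were lower and 11.3% higher. The cause of the changes between settings was not tested. None of the 7 called members changed direction under these alternatives, but 25 of the 40 others did under at least 1, among them Plxnb2 (0.05 to 0.70 with status at 0.1, 5 or 10 RPKM), Unc5c and Neo1.

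Over the 10 alternatives Epha7 kept its call in 10 (-4.45 to -1.08), Sema6a in 9, Efna5 and Efna1 in 8 each, Sema3f in 6 (0.50 to 1.90), Nrp1 in 5 (-1.55 to -0.56) and Ntn1 in 4 (-1.85 to -0.37). Efna5 fell to -0.49 with status at 0.1 RPKM. With status at 0.1 RPKM the counts of 2 and 5 held other members: Efna1 and Neo1 (1.11) were higher, and Epha7, Sema6a, Plxna3 (-1.22), Plxnd1 (-1.34) and Robo1 (-1.23) lower. Of all genes, 10.2% were higher and 7.46% lower under that setting. Plxna3 and Plxnd1 also passed the limit with status at 5 RPKM (-1.03 and -1.10), a pseudocount of 0.1 (-1.42 and -1.76) and rescaling (-1.11 and -1.18), and Plxna3 without cells 3 and 7 and without cells 25 and 27 (-1.04 each). Robo1 (-1.18), Slit3, Ephb2 and Ephb3 passed it with a pseudocount of 0.1, and Slit3 with rescaling. Depth in reads is unknown, so a value below 1 RPKM in a cell does not show that the gene was absent from it.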
